A study of Heliconius himera and Heliconius erato lativitta and Heliconius erato petiverana with 18 samples.

Results

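The 86 gene IDs described here were high in 6 wing libraries of Heliconius butterflies, the forewing (FW) and hindwing (HW) libraries of himera number 1 and of petiverana numbers 2 and 3, and low in the other 12. They were chosen by their read counts in all 18 libraries. X is 1 plus the CPM, the reads of an ID scaled to the gene reads of its library. CPM is not divided by gene length, so levels of different IDs are abundances in the library and not per length. An ID had to have a lowest X of at least 5 in the 6 libraries, at least 2 times its highest X in the other 12, and a highest X in the 6 under 4 times its lowest. Of 14612 IDs, 86 (0.589%) met these thresholds, and all were kept, since the rule allowed 150. The level of the members in the 6 libraries against the other 12 is therefore a description and was given no test.

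The study measured poly-A selected RNA from whole wing tissue of Heliconius himera, H. erato lativitta and H. erato petiverana. No mutant or treatment is named in the labels. Insects were reared at about 27 °C and sampled 3 days after pupation. Each taxon has FW and HW libraries numbered 1 to 3, which gives 6 groups of 3. Nothing in the labels ties a library to a separate animal or says whether wings were pooled, so p-values measure only the spread between these libraries.

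These butterflies are known for wing colour patterns that differ between races and are shared with co-mimics. The pupal wing is a thin double sheet of epithelium in which scale-building cells differentiate, tracheae and blood cells lie between the layers, and pattern genes such as optix, WntA and cortex act before pigment is laid down. Pigment genes of the ommochrome and melanin pathways, and genes for cuticle proteins, are switched on in sequence as the scales mature. A wing library therefore mixes several cell types. More cells of a type and more RNA per cell cannot be told apart in such data. The files pair the IDs with no gene names, no annotation was used here, and nothing is said about what the members encode. For the same reason marker genes of wing or other cells could not be checked against the tissue label.

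Several libraries stood apart before any member was considered. In all petiverana libraries and in himera number 1, the share of gene reads in the top 10 IDs was 30.7% to 33.7%, against 8.62% to 12.4% in himera 2 and 3 and in lativitta. The ambiguous reads, a summary entry of the files, made up 0.453% to 0.715% in the former and 1.40% to 1.77% in the latter. TMM factors, which rescale libraries to the bulk of IDs, were 0.535 to 0.751 in the former and 1.21 to 1.59 in the latter. The 6 libraries in which the members are high thus lie within 1 side of this divide, and petiverana number 1 lies on that side too. The part of these differences in the members' pattern was not tested. Himera number 1 shares the pattern with libraries of another taxon, not with the other numbers of its own.

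The members took a large part of the RNA where they were high. They held 7.93% of gene reads in himera FW 1 (95% Wilson interval 7.92 to 7.95) and 8.73% in HW 1. In petiverana they held 9.69% in FW 2, 8.16% in FW 3, 9.22% in HW 2 and 8.32% in HW 3. In himera 2 and 3 and in lativitta the share was 0.0956% to 0.139%. Petiverana number 1 lay between, at 0.572% in FW (0.565 to 0.578) and 0.491% in HW (0.485 to 0.496). Intervals cover counting error only, and the shares rest on 534844 to 799851 member reads in the 6 libraries and 5027 to 22171 in the 10 lowest.

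**Figure D1:**
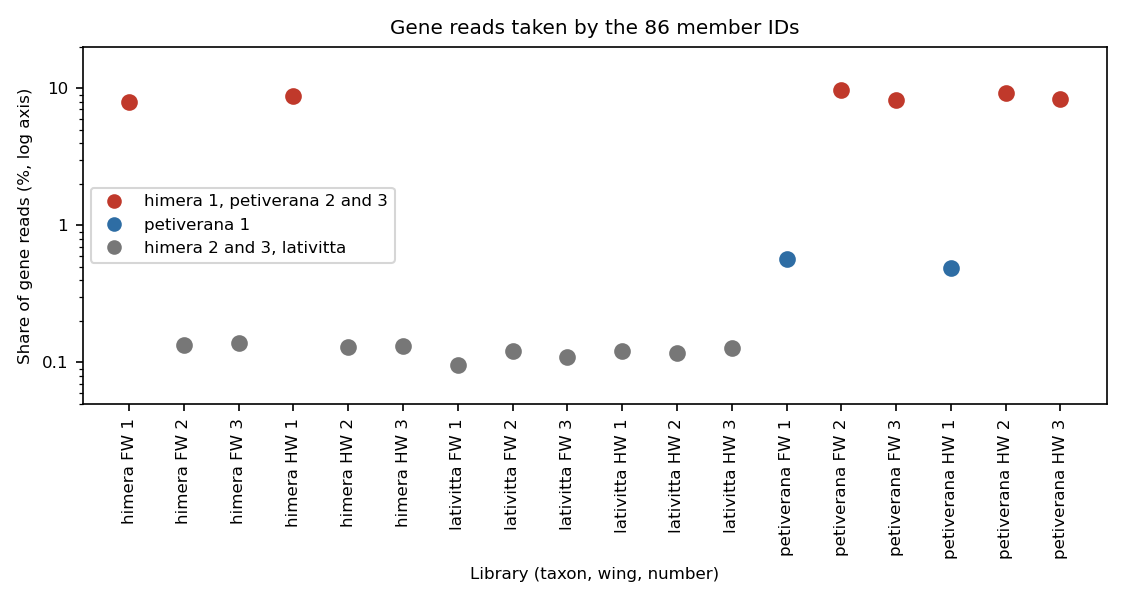
Share of gene reads taken by the 86 member IDs in each library, in percent on a log axis, with 1 point per library. The 6 libraries that chose the members sit between 7.93% and 9.69%, petiverana number 1 at 0.491% and 0.572%, and the remaining 10 libraries between 0.0956% and 0.139%.

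The typical member was among the more abundant IDs of the 6 libraries and an ordinary or silent one in himera 2 and 3 and lativitta. Petiverana number 1 lay between. The median member was at 161 to 185 CPM in the 6 libraries, at 17.8 CPM in petiverana FW 1 and 15.7 CPM in HW 1, and at 1.64 to 3.15 CPM in the remaining 10. In rank this put the median member at the 95.3rd to 95.9th percentile of all IDs in the 6 libraries, at the 75.6th and 76.2nd in petiverana number 1, and at the 39.7th to 44.3rd in the others. Averaged over the 6 libraries, 15 members were at 1000 CPM or more, 41 at 100 to 1000 CPM and 30 under 100 CPM, with a range of 8.17 to 25186 CPM. All members had reads in each of the 6 libraries, while 4 to 14 of them had none in each of the 10 lowest. No member was without reads in all 12 libraries outside the set.

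**Figure D2:**
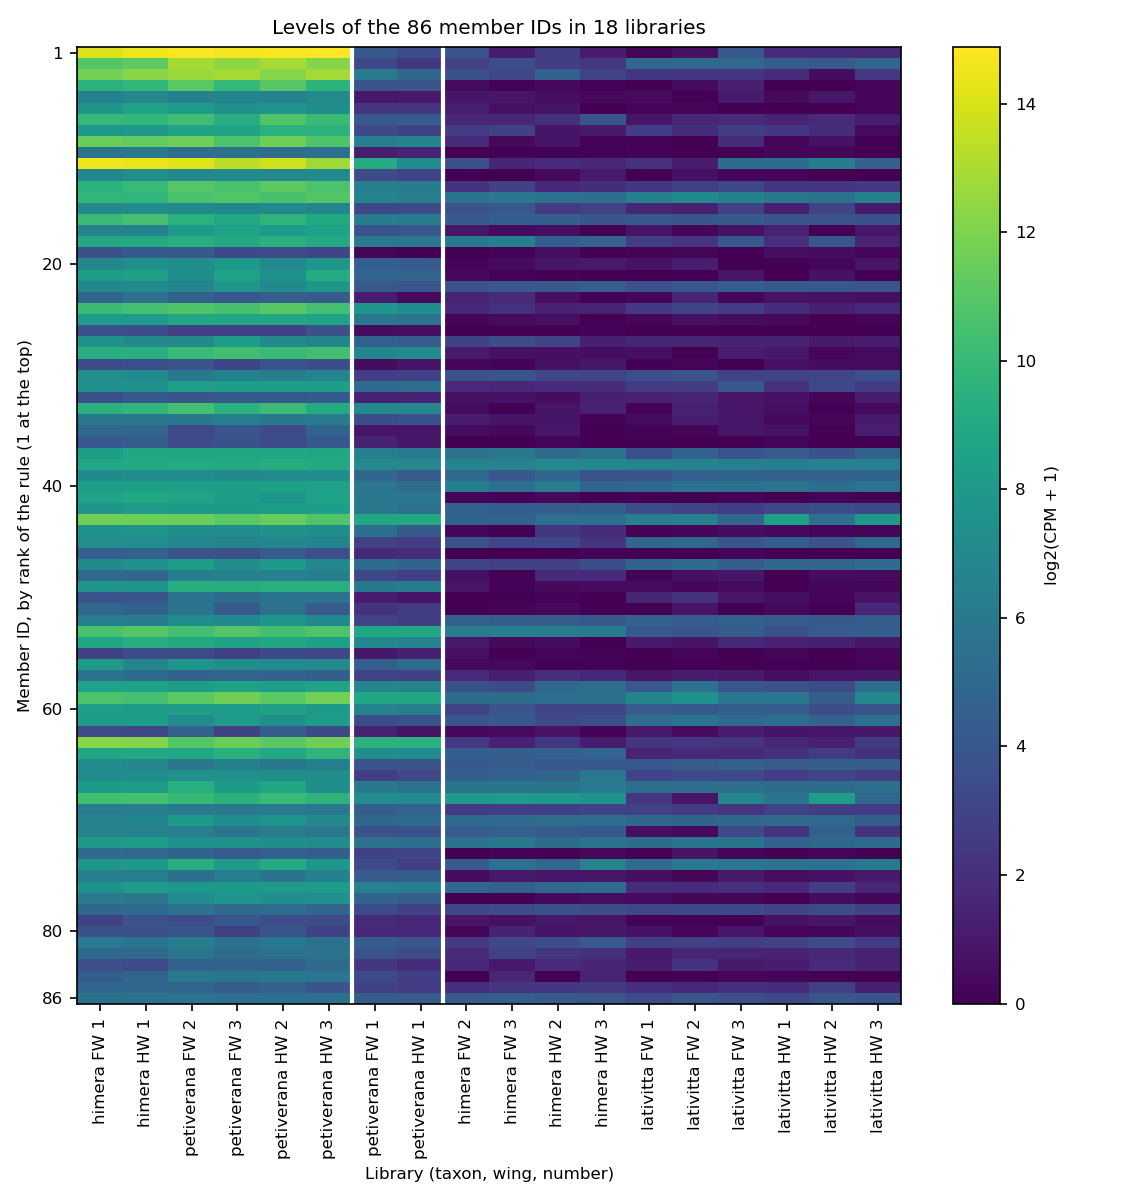
Levels of the 86 members as log2(CPM + 1), 1 row per member in the order of the rule and 1 column per library. White lines separate the 6 libraries that chose the members, the 2 petiverana number 1 libraries and the other 10. Each row is brighter in the first block than in the other blocks, as the rule requires, and intermediate in petiverana number 1 for many. Members with a low CPM in the set lie low on the colour scale there too.

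HEL_006550 stood first. In himera number 1 its level was 17115 CPM in FW and 23457 CPM in HW, followed by 28226, 24689, 27465 and 30165 CPM in petiverana FW 2, FW 3, HW 2 and HW 3. In petiverana it was at 17.2 CPM in FW 1 and 10.02 in HW 1. In himera it was at 13.0 CPM in FW 2, 1.23 in FW 3, 5.76 in HW 2 and 1.21 in HW 3, and in lativitta it ranged from 0.219 to 16.2. The lowest X in the set was 942 times the highest outside it, and no library lay between. In the study's own groups this ID gave 5710 ± 9877 CPM in himera FW and 17644 ± 15367.5 in petiverana FW (SD, n = 3 each), against 5.67 ± 9.14 in lativitta FW. The SD exceeded the mean in himera and came close to it in petiverana.

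The spread within the study's groups was wide for the members at large. The median coefficient of variation of the members was 1.60 in himera FW and 1.59 in himera HW, where 1 of 3 libraries is in the set. It was 0.753 and 0.758 in petiverana FW and HW, where 2 of 3 are, and 0.476 and 0.433 in lativitta, where none is. Over all IDs with at least 10 reads in at least 3 libraries the medians were 0.466, 0.476, 0.330, 0.377, 0.200 and 0.212 in the same order. The rule fixes this order for himera and petiverana.

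HEL_010082, HEL_004510 and HEL_005528 followed in rank. HEL_010082 was at 1974 and 2295 CPM in himera FW 1 and HW 1 and at 4699 to 7797 CPM in the 4 petiverana libraries of the set. Outside, it was highest in lativitta, with 16.5 to 31.0 CPM, while himera 2 and 3 held 4.12 to 10.4 and petiverana FW 1 and HW 1 held 8.39 and 4.29. Its X ratio was 61.8. HEL_004510 reached 3472 and 4872 CPM in himera FW 1 and HW 1 and 4722 to 7560.1 CPM in petiverana 2 and 3, with a ratio of 50.8 to petiverana FW 1, where it was at 67.3 CPM. HEL_005528 reached 734 and 935 CPM in himera FW 1 and HW 1 and 2187, 975, 2077 and 785 CPM in petiverana FW 2, FW 3, HW 2 and HW 3. Petiverana FW 1 and HW 1 held 14.2 and 13.99 CPM and the other 10 libraries 1.51 CPM or less, where lativitta FW 1, HW 1 and HW 2 had no read of it. These IDs thus shared the same 6 high libraries and differed in which of the low libraries held the remainder.

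By abundance the order was different. After HEL_006550, the second most abundant member was HEL_013297, rank 11 by the rule, with a mean of 16069.7 CPM in the 6 libraries. It was higher in himera number 1, at 24269 and 22461 CPM, than in petiverana 2 and 3, at 17999.8, 10248, 14552 and 6887 CPM. It was also read at 577 and 150.9 CPM in petiverana FW 1 and HW 1. HEL_006550 and HEL_013297 together made up 42.8% to 52.6% of the member reads in the 6 libraries. The remaining 84 members therefore supplied about as many reads as this pair. HEL_004510 and HEL_010082 completed the 4 most abundant, at means of 5726 and 4939 CPM.

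The X ratio fell off quickly down the list. It was 10 or more for 12 members, 5 to 10 for 11, 3 to 5 for 27 and under 3 for 36, with a median of 3.39. HEL_007699 and HEL_003146 were last inside, at ratios of 2.02 and 2.02. HEL_003146 was at 42.3 to 50.1 CPM in the 6 libraries and 20.4 CPM in himera FW 3. Just outside were HEL_001203 at a ratio of 1.99 and HEL_011984 at 1.96, the latter with a lowest X of 1043 in the set and 533 in himera FW 3. The end of the list is a matter of the threshold, with no gap at it.

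A further 41 IDs failed only because their levels within the set spanned 4-fold or more. Of these, 32 had a higher mean in petiverana 2 and 3 and 9 in himera number 1. They include IDs as abundant as the members, such as HEL_006518 at a mean of 30161 CPM in himera number 1 and 5016 in petiverana 2 and 3, which is named here after its values were seen. In the opposite direction, 36 IDs had a lowest X of at least 5 in the 12 other libraries, at least 2 times their highest in the set, with a span under 4-fold. Without the limit on the span the numbers were 127 in the members' direction and 75 in the opposite one.

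With the same thresholds applied to other sets of libraries, 153 IDs were high in petiverana 2 and 3 alone, 129 in himera number 1 alone and 59 in himera number 1 together with all petiverana libraries. Their median X ratios were 3.69, 3.14 and 4.23, against 3.39 for the members. IDs high in petiverana 2 and 3 alone took 29.6% to 33.2% of gene reads there, and those high in himera number 1 alone 31.2% to 31.6% there. Both shares exceed the 7.93% to 9.69% taken by the members. An ID can meet the thresholds for more than 1 of these sets, the members' own included. How many did so was not counted, and these counts were given no test.

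Petiverana number 1 was the most frequent runner-up. The highest library outside the set was petiverana FW 1 or HW 1 for 59 members, himera 2 or 3 for 15 and lativitta for 12. The rule limits how high these libraries may be but does not order them. In 51 members (59.3%) both petiverana number 1 libraries exceeded all 10 remaining libraries, while the same was true of 9.00% of the 10088 IDs with at least 10 reads in at least 3 libraries. This share moves with the scaling. With TMM-normalised CPM it was 74 members against 23.5% of all such IDs. In 3 members, HEL_008985, HEL_003846 and HEL_006294, both petiverana number 1 libraries were below all 10 in plain CPM. The share of all IDs in this direction was not counted. Nor was the count repeated with TMM-normalised CPM. The TMM factors were 0.535 to 0.631 in petiverana number 1 and 1.21 to 1.59 in the 10. That scaling raises petiverana number 1 against the 10, so it can only lower this count or leave it.

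**Figure D3:**
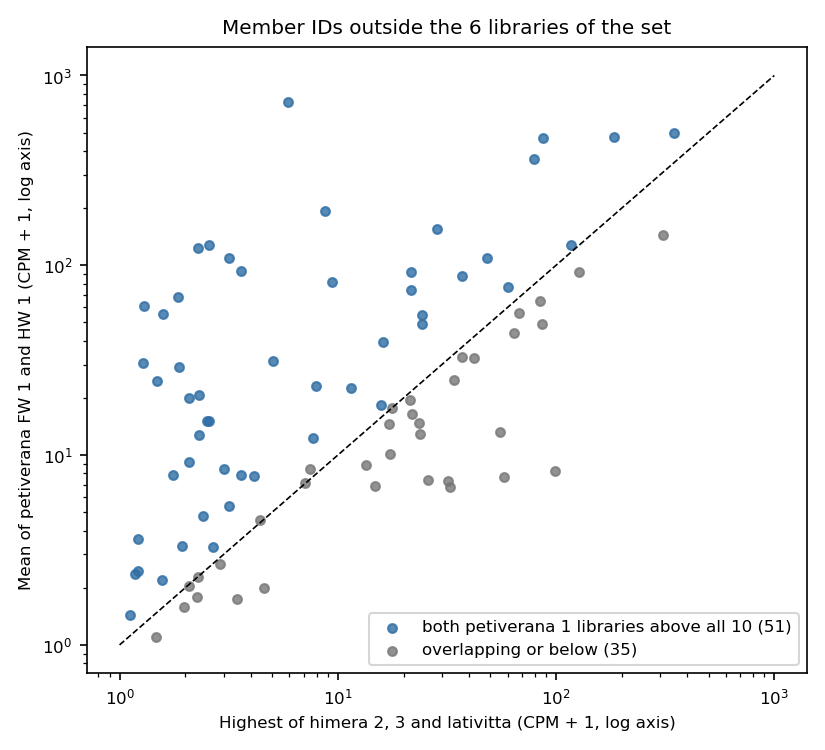
Mean level in petiverana FW 1 and HW 1 against the highest level in himera 2 and 3 and lativitta, each as CPM + 1 on log axes, with 1 point per member and a dashed line of equality. The 51 members in which both petiverana number 1 libraries exceeded the other 10 libraries are blue, and the other 35 grey.

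The members fell into differently shaped patterns outside the set, which are illustrated with IDs picked after their values were seen. In 40 members no library of himera 2 and 3 or lativitta reached 5 CPM. In 22 of these 40 petiverana number 1 was at 5 CPM or more in both wings, in 17 it was under 5 CPM in both, and in 1 it was mixed. HEL_010142 is an example of the first kind. It was at 4779 and 4509 CPM in himera FW 1 and HW 1 and at 1972 to 3263 CPM in petiverana 2 and 3. Petiverana FW 1 and HW 1 held 757 and 689 CPM, with 4.91 CPM or less in all 10 others. HEL_005868 is an example of the second kind, at 91.3 to 130.3 CPM in the 6 libraries and at 1.11 CPM or less in all the other 12.

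In 32 members some library of himera 2 and 3 or lativitta reached 20 CPM. These 32 were not alike in how even that lower level was. HEL_013345 was at 475 to 606 CPM in the 6 libraries, with 125 and 127 in petiverana FW 1 and HW 1, and 80.8 to 116 in the other 10. HEL_009166 was at 759 to 1380.1 CPM in the 6 libraries and at 200.01 to 289 CPM in himera 2 and 3. In lativitta it was at 4.06, 0.751 and 112 CPM in FW 1, 2 and 3, and at 53.8, 307 and 31.1 CPM in HW 1, 2 and 3. Libraries of 1 lativitta group thus differed by a larger factor for this ID than the high and low libraries of himera did. HEL_006294 was at 219 to 634 CPM in the set, 17.7 to 97.9 CPM in the 10 others and only 8.78 and 5.72 CPM in petiverana number 1.

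Among the low libraries, himera 2 and 3 and lativitta could also be set against each other. In 11 members all 4 himera libraries exceeded all 6 lativitta libraries, while 7.33% of the 10088 IDs did so. In 6 members all lativitta libraries exceeded the himera ones, as did 17.9% of those IDs, and in 69 the libraries overlapped. With TMM-normalised CPM the members' counts were 15 and 5, against 11.8% and 10.9%. The median log2 difference of himera 2 and 3 minus lativitta was 0.11 over the members and -0.17 over those IDs, on plain CPM plus 1. Among members whose libraries did not overlap, HEL_013449, HEL_013450 and HEL_007470 had the highest log2 ratio of mean CPM plus 1, himera over lativitta. HEL_010082 and HEL_007055 had the lowest. All these IDs are named after their values were seen. HEL_007055 was at 6.18 to 10.8 CPM in himera 2 and 3 and 19.9 to 36.2 CPM in lativitta.

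Within the set, himera number 1 and petiverana 2 and 3 were close, as the 4-fold limit requires. The mean of the himera libraries was higher for 38 members and lower for 48, with a median log2 ratio of -0.13 and a range of -1.75 to 0.92. In 50 members the ratio was within 0.5 on the log2 scale in either direction. HEL_000636 was the lowest, with means of 13.3 CPM in himera and 47.1 in petiverana, and HEL_002217 the highest, with 1216 and 643 CPM. From the lowest to the highest of the 6 libraries the members spanned 1.17-fold to nearly the limit, with a median of 2.02-fold. The span was under 2-fold for 41 members and 3-fold or more for 15.

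**Figure D4:**
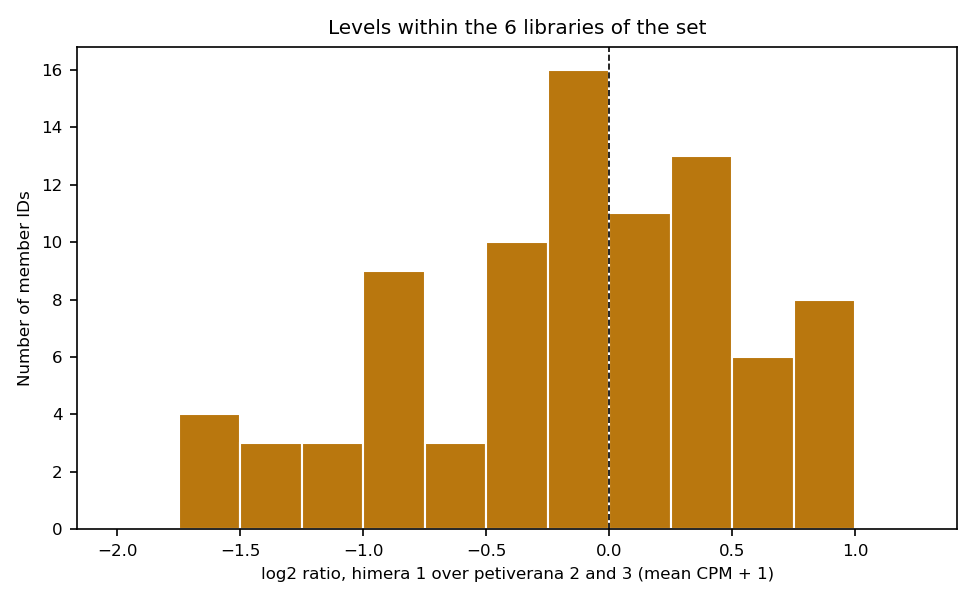
Number of members by the log2 ratio of their mean level (CPM + 1) in himera number 1 over that in petiverana 2 and 3, in steps of 0.25. The ratios run from -1.75 to 0.92 with a median of -0.13, and the dashed line marks equal levels.

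The wings were compared next. The rule did not use the direction of this contrast, but its 4-fold limit covers FW and HW together and so caps the ratio of the wings in each of the 3 number pairs of the set. The size of the ratios is therefore a description. Of the 86 members, 84 (97.7%) differed by less than 2-fold (1 on the log2 scale) between HW and FW in all 3 pairs, against 95.3% of the 10088 IDs with at least 10 reads in at least 3 libraries. The log2 ratio of HW to FW had a median of 0.12 in himera 1, with 58 of 86 (67.4%) higher in HW, 0.00067 in petiverana 2, with 44 (51.2%), and 0.02 in petiverana 3, with 47 (54.7%). Of the 10088 IDs, 41.4%, 49.8% and 48.9% were higher in HW in the same pairs. In himera 1 the range was -1.30 to 0.75, in petiverana 2 -0.89 to 0.83 and in petiverana 3 -1.48 to 0.94. In 27 members (31.4%) the sign was the same in all 3 pairs, HW higher in 22 and FW higher in 5, against 27.8% of the 10088 IDs. Of the 10088 IDs, 11.6% had HW higher in all 3 and 16.2% FW higher. Taken over both directions, the share with a common sign was thus near that of all IDs. The directions differed, with HW higher the more frequent among the members and FW higher among the 10088 IDs. This difference was not tested.

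**Figure D5:**
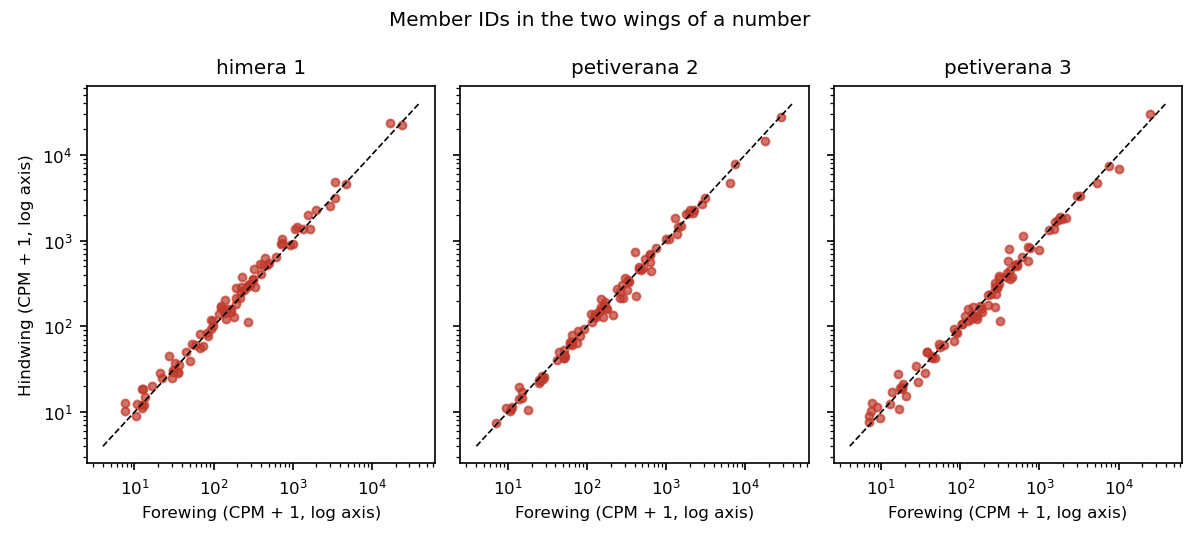
Level of each member in hindwing against forewing, as CPM + 1 on log axes, for himera 1, petiverana 2 and petiverana 3, with 1 point per member and a dashed line of equality. The points follow the line over the whole range, and 84 of 86 members are within 2-fold of it in all 3 panels.

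All 86 members passed the filter on low counts and entered the test over 9957 IDs. Over the taxa, 0 of 86 members were called between HW and FW by edgeR's quasi-likelihood test with Benjamini-Hochberg adjustment at 0.05, while 0.0402% of all IDs were called. None of the members had an unadjusted p under 0.05 by edgeR, against 128 of the 9957 IDs. DESeq2 gave a p for 84 members and also called 0. There 3 members had an unadjusted p under 0.05, against 201 of 13341 IDs. The median log2 difference of HW minus FW was 0.05 over the members and 0.0028 over all IDs tested. This median rests on both himera number 1 libraries being present. It was 1.71 without himera FW 1, with 86 of 86 members higher in HW, and -1.42 without himera HW 1, with 2 of 86 higher. Within himera the median moved from 0.16 to 4.78 and -4.69. In each of these fits 1 wing of himera keeps its high library and the other holds only low ones. The rule chose these libraries as high and low, so the shifts follow from the rule and are no result about the wings. Within himera these fits called 0 members, with 2 of 10259 and 4 of 10304 IDs called. With all 18 libraries, 0 members were called within himera (0.0201% of all IDs by edgeR) and 0 within petiverana (0.0201%), by edgeR and by DESeq2. In these unpaired fits 0 members had an unadjusted p under 0.05. Of the 9957 IDs, 98 in himera and 52 in petiverana had such a p by edgeR. By DESeq2 it was 177 and 62 of 13341. For the interaction of wing and taxon edgeR called 0 members and 0% of all IDs, and DESeq2 0 members. The fit keeps the spread between numbers in its error, with a median standard error of 1.02 for the members over the taxa. The high and low numbers that the rule picked are part of that spread. With the number as a replicate block in a fit of himera and petiverana, edgeR again called 0 members within himera (0.494% of all IDs) and 0 over both taxa (0.165%). Of the members, 18 had an unadjusted p under 0.05 within himera, against 1486 of the 9721 IDs tested, and 10 over both taxa, against 1080. In the paired fit of the 6 libraries of the set 0 members were called (0.0449%), and 8 had an unadjusted p under 0.05, against 624 of 8910 IDs.

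Within lativitta, where the members are low, edgeR called 0 members (0.0301% of all IDs) and DESeq2 called 3 (0.142%). The 3 were HEL_008902, HEL_014031 and HEL_014315, with 1 read each in all 6 lativitta libraries together. HEL_008902 had its read in HW 3, HEL_014031 in HW 1 and HEL_014315 in FW 3. DESeq2 gave log2 differences of 12.99, 15.4 and -15.1 for them. Neither wing can be said to be higher from 1 read.

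The members with the same sign in all 3 pairs and the largest value in their weakest pair are given as values. HEL_004259 was at 239.8 CPM in FW and 266 in HW of himera 1, 409 and 727 in petiverana 2, and 411 and 789 in petiverana 3. HW was higher in each pair, and by far the least in himera. HEL_008902 was at 276 CPM in FW and 111 in HW of himera 1, 215 and 133 in petiverana 2, and 159 and 130.5 in petiverana 3. FW was higher in each pair. In petiverana number 1, outside the set, the order was the reverse, at 21.5 CPM in FW and 37.7 in HW. In a fit of the 6 libraries of the set with the number as a block, HEL_004259 was 0.67 higher in HW on the log2 scale (SE 0.15), with an edgeR adjusted p of 0.244, and HEL_008902 was at -0.74 (SE 0.17), with an adjusted p of 0.274. HEL_004824 and HEL_007697, the next in each direction, had mean log2 ratios of 0.18 and -0.22 over the 3 pairs. None of the 4 differences passed the test.

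The rule took no account of the order of the IDs, and some members carried consecutive numbers. There were 11 such runs, 10 of 2 IDs and 1 of 3, with 23 members in all. Of the 168 IDs numbered directly next to a member, 23 (13.7%) were members themselves, against 0.589% of all IDs. Whether neighbouring numbers are neighbours in the genome is not given in the sources used here. Overlapping neighbours or near-identical copies could share reads or lose them to the ambiguous entry, and members with consecutive numbers are uncertain to that extent.

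The run of 3 was HEL_013449, HEL_013450 and HEL_013451. In the 6 libraries HEL_013449 was at 190.2 to 287 CPM, HEL_013450 at 422 to 842 CPM and HEL_013451 at 1405 to 2010.1 CPM. Petiverana FW 1 and HW 1 held them at 87.0 and 86.3, at 162 and 146, and at 477 and 459 CPM. In himera 2 and 3 they ranged over 23.6 to 36.0, 21.2 to 27.4 and 68.3 to 85.9 CPM, and in lativitta over 1.999 to 5.65, 1.76 to 5.22 and 11.5 to 22.2 CPM. All 3 thus showed the same order of library sets, with petiverana number 1 second, himera 2 and 3 next and lativitta lowest, with no overlap between them in plain CPM.

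The run with the highest rank was HEL_013975 and HEL_013976, whose members were unlike outside the set. HEL_013976 was at 160.0 to 373 CPM in the 6 libraries, with 3.71 and 3.82 CPM in petiverana FW 1 and HW 1 and 1.41 CPM or less in the other 10. HEL_013975 was at 887 to 1906 CPM in the 6 libraries and was read throughout the others, with 101 and 81.4 CPM in petiverana FW 1 and HW 1, 42.0 to 59.4 CPM in himera 2 and 3 and 48.3 to 126 CPM in lativitta. The 6 high libraries are shared by the rule, and the low levels of this pair differed.

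Next to members lay 145 further IDs, of which 107 had at least 10 reads in at least 3 libraries. Of these 107, 31 (29.0%) had a mean X in the set at least 2 times that in the other 12 libraries, against 9.42% of the 10088 such IDs. With TMM-normalised CPM it was 35 (32.7%) against 14.1%. The TMM factors shift the median log2 difference of all these IDs between the set and the other libraries from -0.76 to -0.04, and that of the 107 from -0.51 to 0.12. HEL_003147, numbered after the last-ranked member HEL_003146, had means of 686 CPM in himera number 1 and 21205 CPM in petiverana 2 and 3, and 2.90 CPM in the other 12 libraries. It failed the rule only by its span within the set. It is named after its values were seen.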

How the data were processed

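Each library came as a file of whole-number counts of reads per ID, deposited by the authors without scaling. Per the submitters' processing notes TopHat, bedtools and DESeq2 were used, with no version or role given. The build, annotation and strand setting: not given in the sources used here. The 5 summary rows of each file, which held 49.4% to 62.4% of reads, were left out. Libraries held 4599197 to 17002996 gene reads.

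Plain CPM was used for the rule and all levels. Wing tests used edgeR 4.0.16 in R 4.3.3 on the counts (filterByExpr, TMM, glmQLFit, glmQLFTest, 1 mean per group, 18 libraries, 12 residual degrees of freedom), with p adjusted over 9957 IDs and DESeq2 1.42.0 as an alternative. The steps were tested on simulated data with 200 changed IDs. The simulation gave all groups the same base level and held no split into high and low numbers. It therefore does not show which wing differences of the members could have been called. FW and HW of a number correlated in their deviations from group means with r of 0.85 to 0.93 in himera and petiverana. In lativitta r was -0.53 to 0.60, so the numbers did not pair the wings throughout. In both wings of himera and petiverana, number 1 differed from the other numbers in many IDs. It enters the group mean and so moves the deviations of the other numbers too. The r therefore cannot show which FW and HW libraries among those other numbers belong together. Pairs and replicate blocks follow the library labels. Libraries of a group differed by more than sampling noise (the smallest chi-square over its degrees of freedom was 15.9).

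The members and lists were chosen with earlier results of these data known. Further IDs were named after their values were seen. IDs named by rule were ranks 1 to 4, the last 2 members and the first 2 outside, the 4 most abundant, 2 per direction with the same wing sign in all 3 pairs, and 2 runs of consecutive numbers, taking the best-ranked of the runs of 2. The rule had foreseen ranks up to 152. With 86 members, the last ranks and the nearest IDs below the ratio took their place. Marker lists could not be used without gene names.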

Additional observations from a re-analysis of the deposited data

How the results depend on the processing

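The number of IDs meeting the thresholds was 82 to 127 with another added constant, TMM or median-of-ratios scaling or no limit on the span, and 86 to 104 with any 1 library left out. TMM kept 78 of the 86 members and median-of-ratios factors 77. In settings chosen after seeing the data, the count was 281 without both himera number 1 libraries and 177 without both petiverana number 1 libraries. The first 150 then held 45 and 74 of the members. The count of members called was 0 in 136 of 138 results with another setting. Most fits gave several of these results, 1 per contrast, so the results are not separate fits. Of the 138, 27 were for the interaction of wing and taxon. The results with 0 include those of a replicate block within each taxon, a replicate block in himera and petiverana, the paired fit of the 6 libraries of the set and each fit without 1 library. Unpaired fits keep the spread between the high and low numbers in their error, so 0 calls there cannot show that the wings are alike. The exceptions to 0 calls were DESeq2 in lativitta (3) and himera without number 1 of himera and petiverana (1). The latter was HEL_004824, which himera 2 and 3 held at 0 to 4.06 CPM. In that fit edgeR called 12 of the 10182 IDs tested. There 14 members had an unadjusted p under 0.05, against 792 of all IDs. Leaving out the 10 most abundant IDs changed the members' share of reads to 5.48% to 8.01% in the 6 libraries, 0.739% and 0.825% in petiverana number 1 and 0.108% to 0.156% in the others. Of the 10 IDs left out, 1 or 2 were members in each of the 6 libraries, and 0 were in petiverana number 1 and the others. The 10 IDs were taken out of the total as well, so where none was a member the share could only rise. The wing differences of HEL_004259, HEL_004824, HEL_008902 and HEL_007697 over the taxa changed sign with which library was left out, and none passed the test over the taxa in those fits.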
